A study of Mus musculus with 6 samples.

Results

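Transforming growth factor beta (TGF-beta) signalling was described here through 9 genes read in single cells: the ligands Tgfb1, Tgfb2 and Tgfb3, the activin subunit gene Inhba, the receptor genes Tgfbr1, Tgfbr2 and Tgfbr3, the inhibitor gene Smad7 and the TGF-beta-induced matrix gene Tgfbi. They were chosen by their symbol in the feature table, and all 9 of them were found among 31053 genes. TGF-beta is secreted in a latent form, is released by integrins or proteases, and signals through a type II receptor (Tgfbr2) that activates a type I receptor (Tgfbr1), which then phosphorylates Smad2 and Smad3. The Smads raise their own inhibitors, among them Smad7, Skil and Pmepa1, and in tumours the pathway is known for restraining T and NK cells and for driving matrix production by fibroblasts. Activin, a dimer of Inhba products, uses the same Smads through other receptors.

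Cells came from material labelled as YUMM2.1, a mouse melanoma line with activated Braf, loss of 1 copy of Cdkn2a and stabilised beta-catenin among its alterations, which all groups share. In the Empty vector (EV) group the line carried a control lentivirus, and in the Bmal1 WT group it carried a lentivirus for Bmal1, a transcription factor of the circadian clock encoded by Arntl; both were sorted pools of transduced cells of 1 line. Each group was 1 droplet library of 3 replicates told apart by hashtag antibodies (EV h1, h7 and h8; Bmal1 WT h3, h5 and h9), so that the group and the droplet channel cannot be told apart. Neither culture nor tumour tissue was named in the labels, and it was not stated that replicates were separate animals, so p-values measure only the spread between hashtags. Another group, Bmal1 bHLH, was not analysed here, because its 3 files were byte for byte those of Bmal1 WT.

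After filtering, 3978 EV cells (median 5094 unique molecular identifiers, UMIs) and 2386 Bmal1 WT cells (median 7570.5) remained, and 5 barcodes occurred in both libraries. Cells were assigned to a class by marker genes, and 89.7% of EV and 84.0% of Bmal1 WT cells received one. The EV library held 1126 T, 1115 NK, 593 macrophage-monocyte, 179 mature dendritic, 139 fibroblast and 139 melanoma gated cells. The Bmal1 WT library held 376, 413, 331, 120, 235 and 344 of them. Every marker of these gates was more than 2-fold higher inside the class than outside it, except 1 of 6 melanoma markers, which was not detected. Since the gates were set by these same markers, this is no separate check of the classes. A further gate of 190 EV and 146 Bmal1 WT cells had been fixed as type 1 conventional dendritic cells, but only 71 and 94 of them carried a UMI of the defining Xcr1 or Clec9a, so it is called here by the other markers that filled it, Naaa/Cd24a dendritic cells. Arntl itself did not separate the groups in melanoma gated cells, where it stood at 55.5, 123 and 53.8 CPM (UMIs of a gene scaled to a common library total) in EV and at 49.3, 68.5 and 64.8 CPM in Bmal1 WT. Whether the transcript of the lentiviral vector would be counted under Arntl by 3′ reads was not stated.

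The positions of the genes are given in GRCm38 with GENCODE M21, all as protein-coding genes counted over their annotated transcripts. Tgfb1 (ENSMUSG00000002603) lies at chr7:25687002-25705077 on the plus strand, Tgfbr1 (ENSMUSG00000007613) at chr4:47353222-47414931 on the plus strand, Tgfbr2 (ENSMUSG00000032440) at chr9:116084293-116175360 on the minus strand and Tgfbi (ENSMUSG00000035493) at chr13:56609523-56639562 on the plus strand, and none of these overlapped another annotated gene. Tgfb2 (ENSMUSG00000039239) lies at chr1:186622792-186705989 on the minus strand and Inhba (ENSMUSG00000041324) at chr13:16011851-16031621 on the plus strand, each with 2 antisense genes over it, of which 1 was measured and held 1 UMI in all cells. Tgfb3 (ENSMUSG00000021253), at chr12:86056745-86079041 on the minus strand, overlaps the gene Ttll5 of the plus strand, which held 598 UMIs, and whether the counting used strand was not stated. Tgfbr3 (ENSMUSG00000029287), at chr5:107106570-107289629 on the minus strand, overlaps 4 annotated genes that have no row in the matrices.

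Because the altered factor, Bmal1, binds with Clock to E-boxes of the letters CACGTG, these letters were looked for on both strands of the RefSeq promoter windows (GRCm38.p6, 250 bases before to 50 after each start). Windows were found for 6 of the 9 genes, and CACGTG stood in 1 of 7 windows, that of Tgfb2, against 7.15% of all 32851 windows. The stretch is shown with those letters in capitals, 45 bases before the start site, at chr1:186706008-186706067 on the minus strand. The Smad-binding letters CAGACA stood in 2 of 7 windows (Tgfb2 and Tgfbr1) and in 21% of all windows. These matches describe letters and not binding.
Tgfb2: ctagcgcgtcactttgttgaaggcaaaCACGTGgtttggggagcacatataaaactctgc

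The TGF-beta ligands fell into 2 patterns of origin, with Tgfb1 mainly in leukocytes and Tgfb2 and Tgfb3 mainly in fibroblast and melanoma gated cells. Inhba had another order, with its highest mean in fibroblast gated cells and the next in macrophage-monocyte gated cells. Levels below are CPM summed over the cells of a class in each hashtag replicate, and 3′ counting reads 1 end of each transcript, so they do not scale with gene length. Tgfb1, the ligand typical of immune cells, was highest in macrophage-monocyte gated cells (610 ± 87.1 CPM, SD, n = 6 hashtags) and NK gated cells (549 ± 113), which did not differ beyond their spread. T cells (241 ± 28.9) and Naaa/Cd24a dendritic cells (228 ± 47.7) came next and also did not differ beyond their spread. NK cells were above T cells in 6 of 6 hashtags (1.14 ± 0.28 on the log2(CPM + 10) scale). Fibroblast (117 ± 38.9), mature dendritic (85.2 ± 32.2) and melanoma gated cells (48.7 ± 27.1) followed, and the last was the lowest of the 7 classes. Plasmacytoid dendritic cells, too few to test, stood at 187 CPM in EV and 216 CPM in Bmal1 WT. Within T cells the Foxp3-positive gate was at 332 ± 46.9 CPM of Tgfb1 and the CD8 gate at 203 ± 42.5.

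Tgfb2 was carried by fibroblast (81.1 ± 16.1 CPM) and melanoma gated cells (38.8 ± 24.7) and was near 0 in leukocytes, with 0 UMIs in Naaa/Cd24a dendritic cells of either library. Melanoma gated cells exceeded mature dendritic cells, the next class in the order, in 6 of 6 hashtags (1.60 ± 0.53). In mature dendritic cells Tgfb2 was at 14.5, 2.69 and 0 CPM in the EV hashtags and at 4.81, 3.79 and 5.84 CPM in the Bmal1 WT hashtags, which rests on 17 UMIs in all. For comparison, Dcn, a fibroblast gene that leukocytes should lack, stood at 0.538 to 4.36 CPM across the 5 leukocyte classes that were tested. Tgfb3 was also highest in fibroblast (25.4 ± 16.2 CPM) and then melanoma gated cells (11.3 ± 8.61 CPM), at a lower level than Tgfb2. The leukocyte classes followed in another order than for Tgfb2, at 1.45 to 3.46 CPM, which is within the range of Dcn. Within T cells the Foxp3 gate stood higher, at 12.4 ± 11.4 CPM of Tgfb3, which rests on 15 UMIs.

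Of the UMIs of the 3 TGF-beta ligands, Tgfb1 made up 98.7% in T cells, 99.4% in NK cells and 99.3% in macrophage-monocyte gated cells of EV. In fibroblast gated cells its share was 50.2% in EV (Clopper-Pearson 95% interval 46.2 to 54.1, counting error only) and 35.9% in Bmal1 WT (33.5 to 38.5). In melanoma gated cells Tgfb2 was the largest of the 3 in both libraries, at 50.1% (46.0 to 54.1) in EV and 48.3% (45.5 to 51.1) in Bmal1 WT.

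Inhba was highest in fibroblast gated cells, at 241, 193 and 92.9 CPM in EV and 429, 113 and 285 CPM in Bmal1 WT. Macrophage-monocyte gated cells carried 86.6 ± 65.1 CPM and melanoma gated cells 35.6 ± 22.9, and none of the neighbours in this order differed beyond their spread. In T cells and dendritic cells the level came from very few cells. Of 72 Inhba UMIs in T cells of h3, 71 were in 1 cell, and all 140 in Naaa/Cd24a dendritic cells of h9 were in 1 cell.

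**Figure D1:**
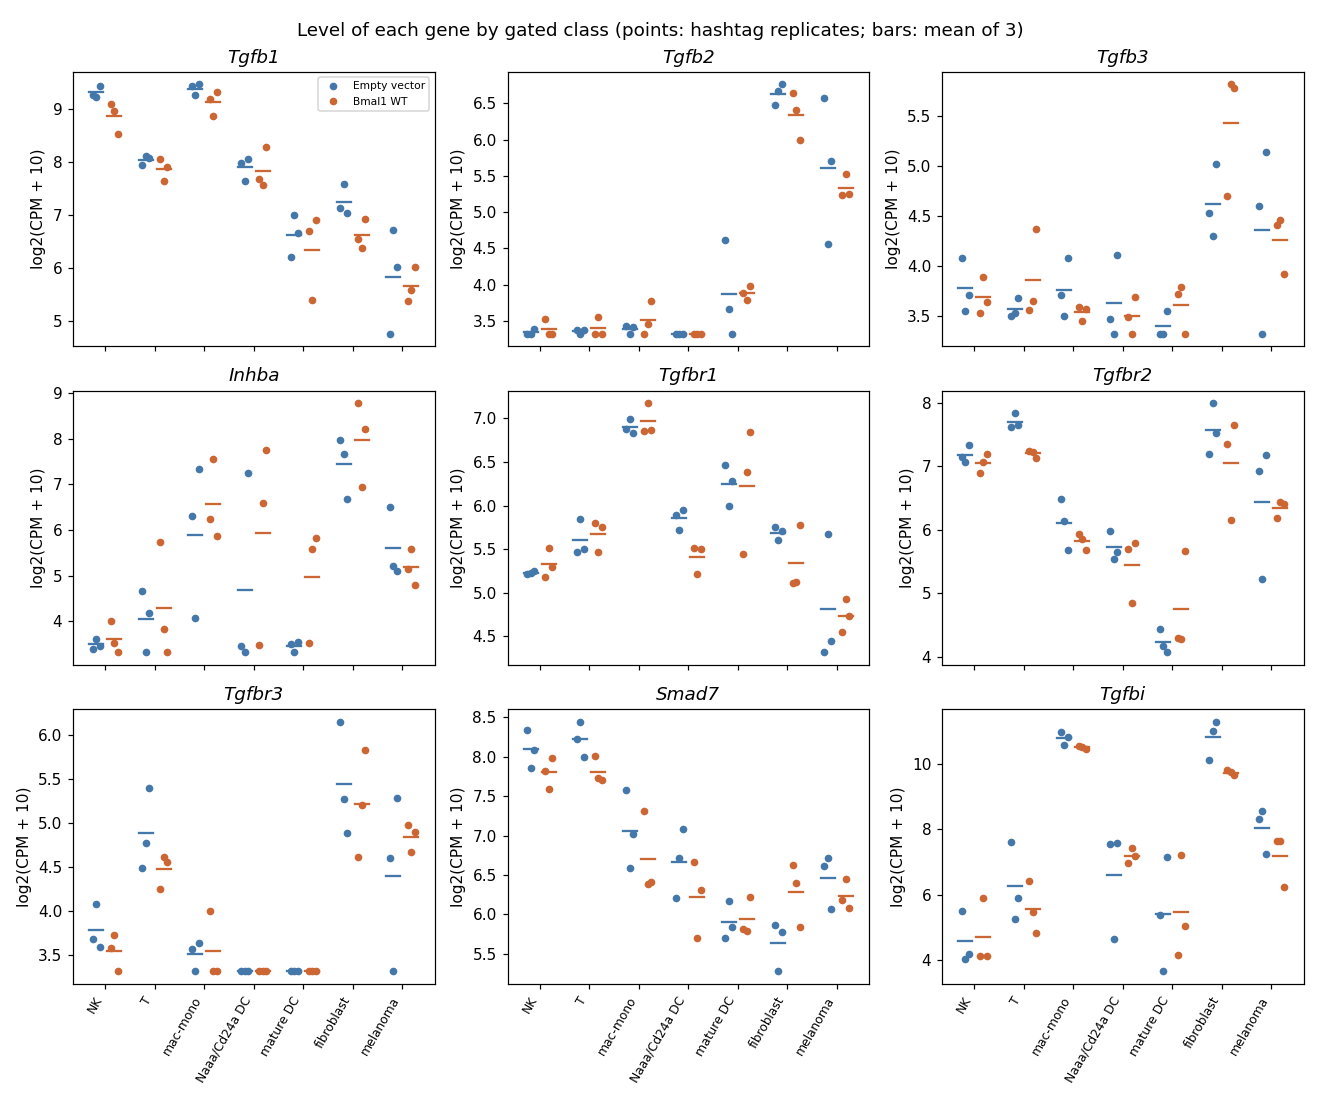
Level of each of the 9 genes as log2(CPM + 10) on the vertical axis in 7 gated classes on the horizontal axis; points are hashtag replicates of Empty vector (blue) and Bmal1 WT (orange) and bars are means of 3. Tgfb1 is highest in NK and macrophage-monocyte gated cells, the mean of Tgfb2 is highest in fibroblast and then melanoma gated cells, and Tgfbi is highest in macrophage-monocyte and fibroblast gated cells.

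The receptors had other orders than the ligands. Tgfbr1, the type I kinase, was highest in macrophage-monocyte gated cells (113 ± 11.7 CPM), above mature dendritic cells (68.7 ± 24.1) in 6 of 6 hashtags. It was lowest in melanoma gated cells (18.9 ± 11.4). Plasmacytoid dendritic cells stood at 160 CPM in EV and 86.5 CPM in Bmal1 WT. Tgfbr2, the ligand-binding kinase, was at 168 ± 35.3 CPM in T cells, 160 ± 61.5 in fibroblast and 130 ± 14.3 in NK gated cells, where neither T and fibroblast nor fibroblast and NK gated cells differed beyond their spread, and T and NK cells were not compared. Melanoma gated cells (81.2 ± 37.7) were below NK cells in 6 of 6 hashtags, and mature dendritic cells (14.4 ± 13.1) were below Naaa/Cd24a dendritic cells (39.4 ± 11.5) in 6 of 6. Mature dendritic cells thus ranked second for Tgfbr1 and last for Tgfbr2. Among T cells, Tgfbr2 was at 269 ± 38.4 CPM in the conventional CD4 gate, 164 ± 30.6 in the CD8 gate and 83.1 ± 25.1 in the Foxp3 gate, whereas Tgfbr1 was at 43.3 ± 32.1, 22.5 ± 4.48 and 88.4 ± 28.2 CPM. Tgfbr3, the co-receptor betaglycan that presents Tgfb2, was at 33.1 ± 17.7 CPM in fibroblast, 16.7 ± 9.72 in melanoma and 16.6 ± 8.12 in T gated cells, and at 0 UMIs in the hashtagged cells of both dendritic classes.

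Smad7 (ENSMUSG00000025880, chr18:75367529-75395935, plus strand), which blocks the type I receptor, was highest in T (253 ± 53.5 CPM) and NK cells (240 ± 44.6), which did not differ beyond their spread. NK cells were above macrophage-monocyte gated cells (114 ± 43.9) in 6 of 6 hashtags (1.06 ± 0.38 on the log2 scale). Fibroblast (55.4 ± 21.9) and mature dendritic cells (51.2 ± 9.41) were the lowest. Tgfbi, a secreted matrix protein that binds integrins, was at 1612 ± 242 CPM in macrophage-monocyte and 1364 ± 729 CPM in fibroblast gated cells, and fibroblast gated cells were above melanoma gated cells (211 ± 110) in 6 of 6 hashtags. Both genes are used as readouts of the pathway, and they were highest in different classes.

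The order of classes was tested with an exact two-sided paired sign-flip permutation test over hashtags, for each pair of neighbours of each gene. The smallest p that 6 pairs allow is 0.03125, and 8 of 54 pairs reached it. After Benjamini-Hochberg adjustment over the 54 pairs none passed (smallest adjusted p = 0.211, permutation test), so that the order within each gene is a description.

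The genes with the most similar pattern over 14 points (7 classes in each of both libraries, Pearson's r of log2(CPM + 10)) are given as a description, since points of 1 library share its depth. For Tgfb1 they were Adgre5 (r = 0.984), Abr (0.975) and the chemokine receptor gene Ccr2 (0.967). For Tgfb2 they were Arhgap29 (0.993), the syndecan gene Sdc2 (0.989) and Irs1 (0.987), and for Tgfb3 Tln2 (0.965), Zfp532 (0.964) and Layn (0.963). Inhba was most like Nucb2 (0.971), Lrrc59 (0.935) and Cebpd (0.933). For Tgfbr1 they were Fbxl5 (0.95), Ets2 (0.926) and Tmem51 (0.923), for Tgfbr2 Impdh1 (0.965), Anapc7 (0.961) and Hnrnpa0 (0.958), and for Tgfbr3 Zhx3 (0.985), Ptpn13 (0.981) and Cd99l2 (0.966). Smad7 was most like Tsc22d4 (0.971), Rock1 (0.969) and Tmem71 (0.968), and Tgfbi most like Egln3 (0.970), Adam15 (0.956) and the cathepsin gene Ctsb (0.956).

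The source of each gene's RNA in a library depended on both the level and the number of cells of a class. NK cells held 35.5% (34.6 to 36.4) and macrophage-monocyte gated cells 31.2% (30.3 to 32.0) of the 11250 Tgfb1 UMIs in EV, against 18.9% and 15.3% of all UMIs. In Bmal1 WT the shares of 6712 Tgfb1 UMIs were 25.2% (24.1 to 26.2) and 30.8% (29.7 to 31.9), against 8.57% and 9.77% of all UMIs. Of 617 Tgfb2 UMIs in EV, melanoma gated cells held 49.3% (45.3 to 53.3) and fibroblast gated cells 43.8% (39.8 to 47.8). Of 1537 in Bmal1 WT they held 39.6% (37.2 to 42.1) and 47.8% (45.3 to 50.4). For Inhba the largest source was fibroblast gated cells, with 42.7% (40.5 to 45) in EV and 56.5% (54.8 to 58.2) in Bmal1 WT.

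The libraries differed in composition, and so did the largest source of several genes under the main gate. Fibroblast and melanoma gated cells made up 7.46% and 15.5% of all UMIs in EV, but 16.6% and 34.9% in Bmal1 WT. For Tgfbr2 the largest source was T cells in EV (33.7%, 32.3 to 35.1) and fibroblast gated cells in Bmal1 WT (31.4%, 29.8 to 32.9). For Smad7 it was T cells in EV (34.8%, 33.6 to 36) and melanoma gated cells in Bmal1 WT (26.5%, 25.2 to 27.9). For Tgfbi, macrophage-monocyte gated cells held 54.7% (53.9 to 55.4) in EV and fibroblast gated cells 42.4% (41.6 to 43.1) in Bmal1 WT. These shares were taken over whole libraries, cells without a hashtag included, and were not tested between groups. Cells without a class held 2.17% to 15.4% of the UMIs of the 9 genes. With classes taken from clusters, melanoma was the largest source of Tgfbr2 (35.4%) and Tgfb2 (55.4%) in Bmal1 WT. Macrophage-monocyte clusters were then that of Tgfb1 in EV (38.8%). With a stricter gate, cells without a class were the largest source of Tgfbr2 (26.8%) and Smad7 (30.9%) in Bmal1 WT. The largest sources of Tgfbi stayed the same under both.

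**Figure D2:**
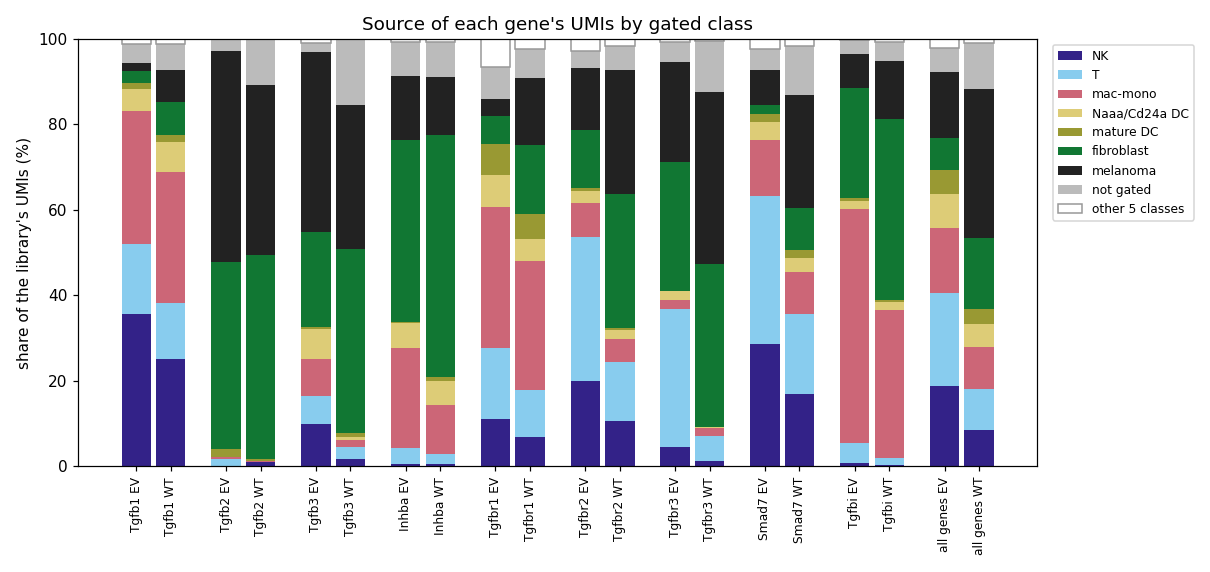
Share of each gene's UMIs in a library (vertical axis, percent) that came from each gated class, for Empty vector (EV) and Bmal1 WT (WT), with all genes at the right. NK and macrophage-monocyte gated cells fill most of the Tgfb1 bars, and fibroblast and melanoma gated cells fill most of the Tgfb2 bars.

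The comparison of Bmal1 WT with EV asked whether altered Bmal1 in the melanoma line went with other TGF-beta levels in each class. It was fitted on UMIs summed by hashtag with edgeR's quasi-likelihood test over all genes with at least 100 UMIs. None of the 9 genes passed an adjusted p of 0.05 in any of the 7 classes, and DESeq2 called 0 of them in these classes too. In the paragraphs that follow, counts at an unadjusted p under 0.05 are given beside the share of all genes that reached it.

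In T cells Tgfbr2 was the gene of the 9 that came nearest to a call. It was at 187, 218 and 191 CPM in the EV hashtags and at 142, 140 and 131 CPM in the Bmal1 WT hashtags. All 3 Bmal1 WT values were below all 3 EV values, as was so for 17.2% of all genes tested in T cells. The log2 fold change was -0.52 ± 0.11 (SE), with an edgeR adjusted p of 0.0844. The gap was seen in the CD8 gate, at 175, 204 and 192 CPM in EV and 136, 136 and 139 CPM in Bmal1 WT, while in the conventional CD4 gate (311, 304 and 253 against 213, 244 and 285) and in the Foxp3 gate (106, 80.6 and 86.6 against 65.4, 114 and 46.4) the groups overlapped. In the CD8 gate Tgfb1 was also without overlap, at 216, 259 and 235 CPM in EV and 194, 143 and 171 CPM in Bmal1 WT. So was Smad7, at 265, 296 and 249 CPM in EV and 222, 174 and 183 CPM in Bmal1 WT. The rest of the 9 genes overlapped there. The share of all genes without overlap in the CD8 gate was not determined, so these genes cannot be set against it and are a description. In T cells as a whole, 28.1% of all genes tested did not overlap in either direction. The CD8, conventional CD4 and Foxp3 gates were not tested against each other.

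Smad7 in T cells was at 290, 338 and 245 CPM in EV and at 247, 202 and 198 CPM in Bmal1 WT, which overlapped by 1 hashtag (log2 fold change -0.42 ± 0.14, edgeR adjusted p = 0.144). Of the 7 members tested in T cells, 2 had an unadjusted p under 0.05, both lower, and 21.3% of all 8297 genes had one. Genes with one that were lower in Bmal1 WT made up 12.7% of all 8297. edgeR called 0 genes (0%) in T cells, 122 without EV h8, and DESeq2 called 247. The median log2 fold change of the 7 members was -0.42 and that of all genes was -0.09. Tgfb1 (-0.17 ± 0.13), Tgfbr1 (0.11 ± 0.19), Tgfbr3 (-0.78 ± 0.41), Tgfbi (-0.97 ± 0.64) and Inhba (1.07 ± 0.96) had unadjusted p-values above 0.05.

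The feedback genes of the pathway were compared in T cells too. All 9 tested genes of the 10 in the list of inhibitors and feedback had a negative log2 fold change, 6 with an unadjusted p under 0.05, against 12.7% of all genes that were lower at that threshold. Their median was -0.59 and that of all genes was -0.09. The list was chosen with earlier results of these data known and was not tested as a set, so these counts are a description. Skil, a repressor that binds Smads and is raised by them, was at 405, 451 and 368 CPM in EV and at 290, 223 and 304 CPM in Bmal1 WT. The groups did not overlap, as was so in this direction for 17.2% of all genes, with a log2 fold change of -0.59 ± 0.14 (edgeR adjusted p = 0.0899; DESeq2 adjusted p = 0.0337). The others were Ski (-0.65 ± 0.19), Tgif1 (-0.70 ± 0.22), Pmepa1 (-0.34 ± 0.11), Ldlrad4 (-0.97 ± 0.39) and Bambi (-0.78 ± 0.32), with edgeR adjusted p-values from 0.106 to 0.200. Of the latency genes, Nrros (-0.57 ± 0.19) was also lower at that threshold. Signal transducers (0 of 7) and the co-receptor list (0 of 1) had none. Of 5 target genes tested, 4 had negative values, 1 of them with an unadjusted p under 0.05, and the median was -0.26. In T cells the summed macrophage markers were at 479 to 606 CPM in EV and 430 to 870 CPM in Bmal1 WT.

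In NK cells Tgfb1 was at 610, 596 and 691 CPM in EV and at 542, 494 and 363 CPM in Bmal1 WT. The groups did not overlap, as was so in this direction for 13.2% of all NK genes, and its log2 fold change of -0.42 ± 0.14 had an edgeR adjusted p of 0.223. Without h9 it was -0.28. In the 99 EV and 23 Bmal1 WT NK cells that carried no hashtag, Tgfb1 went the other way, at 648 and 720 CPM (log2 ratio 0.15, 95% counting interval -0.16 to 0.46), and so did Smad7, at 256 and 452 CPM. Tgfb1 was the 1 gene of 5 members tested with an unadjusted p under 0.05, against 13.0% of 7321 genes and 8.77% in the lower direction. edgeR called 10 of these genes (0.137%), 7 higher and 3 lower and none of them a member, and TMM scaling gave 5, all higher. Leaving out EV h7 gave 93 calls, and leaving out EV h1 gave 0. Tgfbi in NK cells had a log2 fold change of 0.20 ± 0.70, and -1.13 without h5.

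Single feedback genes in NK cells were tested in the same way, and counts over the list are again a description. Skil was at 452, 388 and 407 CPM in EV and 303, 287 and 217 CPM in Bmal1 WT (log2 fold change -0.60 ± 0.14, edgeR adjusted p = 0.110). Pmepa1 was at 205, 201 and 207 CPM against 162, 173 and 149 CPM (-0.34 ± 0.13, edgeR adjusted p = 0.293). For both genes the groups did not overlap, as was so in this direction for 13.2% of all NK genes. Skil, Pmepa1 and Tgif1 (-0.48 ± 0.17) were the 3 of 9 feedback genes tested that had an unadjusted p under 0.05, all lower, against 8.77% of all genes that were lower at that threshold. Of the 9, 7 had a negative log2 fold change, with a median of -0.25 against -0.10 for all genes. In the cells without a hashtag Skil was at 416 and 413 CPM. Fn1, the fibronectin gene and a target of the pathway, was lower by 1.30 ± 0.45 on the log2 scale (edgeR adjusted p = 0.245). Tgfbr2 (-0.17 ± 0.15) and Smad7 (-0.32 ± 0.15) did not reach the threshold in NK cells, and the difference between T and NK cells was not tested.

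In macrophage-monocyte gated cells Tgfbi was at 2016, 1521 and 1799.7 CPM in EV and at 1482, 1448 and 1409 CPM in Bmal1 WT, without overlap (11% of all genes in this class). Its log2 fold change of -0.30 ± 0.13 had an edgeR adjusted p of 0.374, and Tgfbi was the 1 of 6 members with an unadjusted p under 0.05, against 13.3% of 6874 genes. edgeR called 0 genes (0%) and DESeq2 called 13. Skil was again lower, at 544, 508 and 512 CPM in EV and 316, 277 and 399 CPM in Bmal1 WT (-0.66 ± 0.16, edgeR adjusted p = 0.277). Its groups did not overlap, as was so in this direction for 11% of all genes in this class. Among the signal transducers, all 7 tested genes had negative values, with a median of -0.53 against -0.05 for all genes. Smad1, Smad2 and Smad3 had unadjusted p-values under 0.05, against 13.3% of all genes in either direction. Of 7 target genes tested in this class, 3 had negative values and 0 had an unadjusted p under 0.05, with a median of 0.004. The median was -0.19 for inhibitors and feedback, 0.04 for the latency list and -0.05 for the co-receptor list. No list was tested as a set. Smad3, the mediator of TGF-beta transcription, was at 24.7, 28.4 and 13.7 CPM in EV and 10.1, 7.65 and 16.9 CPM in Bmal1 WT, which overlapped. Tgfb1 (-0.26 ± 0.15), Tgfbr2 (-0.36 ± 0.26), Smad7 (-0.36 ± 0.34), Tgfbr1 (0.08 ± 0.16) and Inhba (0.32 ± 0.74) had unadjusted p-values above 0.05.

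**Figure D3:**
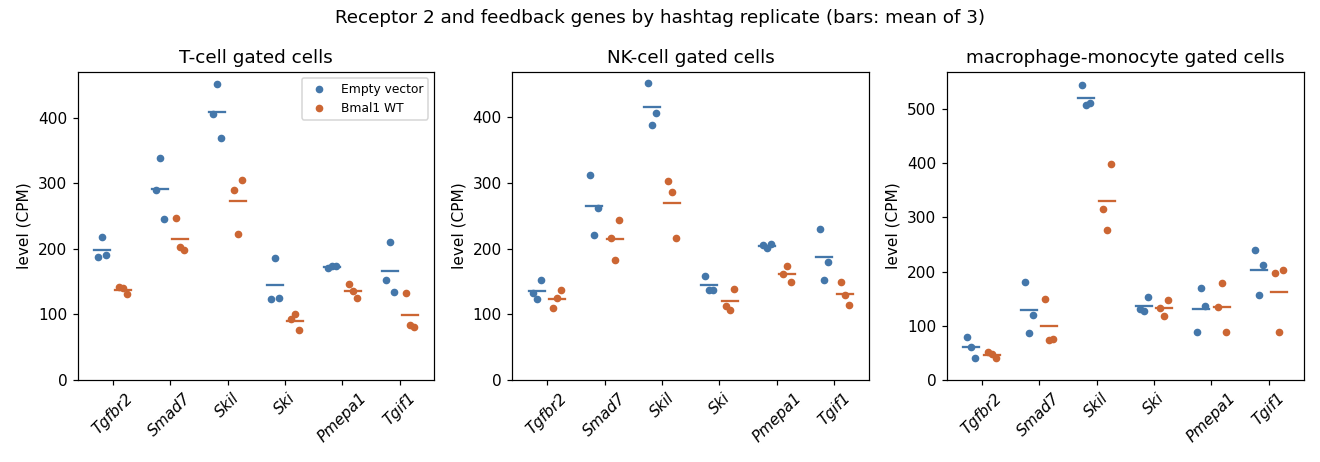
Levels in CPM (vertical axis) of Tgfbr2, Smad7 and 4 feedback genes in T, NK and macrophage-monocyte gated cells; points are hashtag replicates of Empty vector (blue) and Bmal1 WT (orange) and bars are means of 3. Skil of Bmal1 WT lies below Empty vector in all 3 classes, and Tgfbr2 does so in T cells alone of the 3. Among all genes tested, 17.2% (T), 13.2% (NK) and 11% (macrophage-monocyte) were also lower in Bmal1 WT without overlap.

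In Naaa/Cd24a dendritic cells Tgfbr1 was at 49.6, 42.8 and 51.9 CPM in EV and at 35.7, 27.2 and 35.3 CPM in Bmal1 WT, without overlap (16.3% of all genes). On 175 UMIs, its log2 fold change of -0.54 ± 0.22 had an edgeR adjusted p of 0.242. It was the 1 of 6 members under an unadjusted p of 0.05, against 18.2% of 5258 genes, of which edgeR called 68 (1.29%), 33 higher and 35 lower in Bmal1 WT. TMM scaling gave 51 higher and 23 lower, and leaving out any 1 of the 6 hashtags gave 0. The share of cells with Xcr1 or Clec9a was unequal, with 71 of 190 in EV and 94 of 146 in Bmal1 WT. Tgfbr1 was at 38.1 and 25.8 CPM in cells with these genes and at 51.5 and 50.5 CPM in cells without them. Of the other pathway genes, Nrros, which anchors latent TGF-beta on myeloid cells, was at 166, 140 and 136 CPM in EV and 104, 105 and 88.3 CPM in Bmal1 WT (-0.58 ± 0.16, edgeR adjusted p = 0.117).

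In mature dendritic cells none of 4 members had an unadjusted p under 0.05, against 7.55% of 4029 genes, and edgeR called 0 genes (0%) where DESeq2 called 3. Tgfb1 (-0.26 ± 0.41), Tgfbr1 (-0.05 ± 0.38), Smad7 (0.01 ± 0.30) and Tgfbi (0.05 ± 1.0) all stayed within their error. The target genes Timp1 (7.17 ± 2.0) and Igfbp3 (6.43 ± 1.87) had the smallest p-values, but 781 of 854 Timp1 UMIs of h5 were in 1 cell, as were 425 of 494 Igfbp3 UMIs, and neither gene had 4 or more UMIs in another hashtag.

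**Figure D4:**
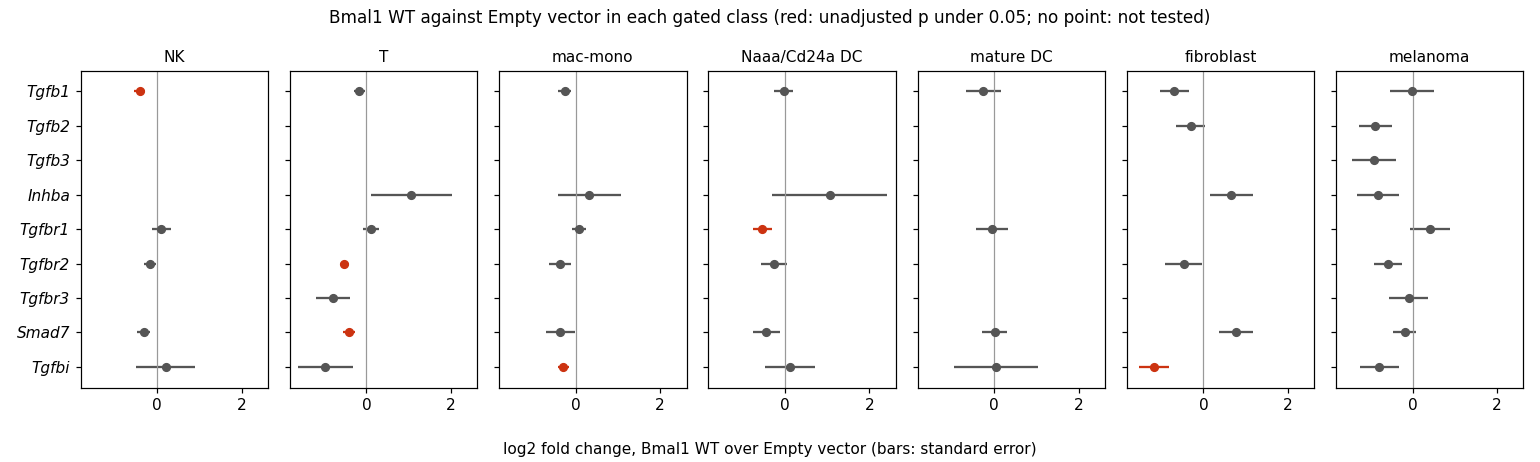
Log2 fold change of Bmal1 WT over Empty vector (horizontal axis) with its standard error for each of the 9 genes in 7 gated classes; red marks an unadjusted p under 0.05, and genes under 100 UMIs have no point. Tgfbr2 and Smad7 in T cells, Tgfb1 in NK cells, Tgfbr1 in Naaa/Cd24a dendritic cells and Tgfbi in macrophage-monocyte and fibroblast gated cells are the 6 red points, all below 0. None of them passed after adjustment. Of all genes tested, 21.3% (T), 13.0% (NK), 13.3% (macrophage-monocyte) and 18.2% (Naaa/Cd24a) had an unadjusted p under 0.05 in either direction. In mature dendritic, fibroblast and melanoma gated cells 7.55%, 10.6% and 3.46% of them had one.

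In fibroblast gated cells Tgfbi was at 1108, 2051 and 2501 CPM in EV and at 881, 848 and 793 CPM in Bmal1 WT. The groups did not overlap (9.18% of all genes), and its log2 fold change of -1.17 ± 0.35 had an edgeR adjusted p of 0.371. It was the 1 of 6 members under an unadjusted p of 0.05, against 10.6% of 4610 genes, and edgeR called 0 genes (0%) where DESeq2 called 44. The hashtagged cells of the class were few and of unlike kinds. Of 33 in EV, 28 lay in cluster 8, while of 47 in Bmal1 WT, 19 lay in cluster 8, 19 in cluster 19 and 8 in cluster 14, which held mainly melanoma gated cells. Tgfbi was at 2254 (EV) and 2044 CPM (Bmal1 WT) in cluster 8 and at 979 and 906 CPM in cluster 19, over cells with and without a hashtag. In the 29 Bmal1 WT cells of cluster 14 it was at 55.0 CPM and Dcn was at 19.6 CPM, against 7346 CPM of Dcn in cluster 8. With classes taken from clusters the log2 fold change of Tgfbi was -0.10.

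The clusters of the fibroblast class differed in the ligands. Inhba was at 188 and 229 CPM in cluster 8 and at 776 and 855 CPM in cluster 19, while Tgfb2 was at 131 and 226 CPM in cluster 8 and at 46.5 and 50.8 CPM in cluster 19. Smad7 was also higher in cluster 19, at 110 and 146 CPM against 34.4 and 23.9. The order was the same in both libraries for each of the 3 genes. Clusters were built from 2000 variable genes of these same cells, and these genes may be among them. The comparison is therefore a description without a test.

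Most fibroblast gated cells carried no hashtag (98 of 139 in EV and 180 of 235 in Bmal1 WT) and entered no test. In them Tgfbi was at 1710 and 1190 CPM (log2 ratio -0.52, 95% counting interval -0.59 to -0.46) and Tgfb1 at 124 and 78.3 CPM (-0.67, -0.92 to -0.42), each in the direction of the hashtagged cells. Tgfb1 in hashtagged cells was at 131, 183 and 121 CPM in EV and at 84.1, 73.4 and 111 CPM in Bmal1 WT (-0.69 ± 0.34, edgeR adjusted p = 0.508). The groups did not overlap, as was so in this direction for 9.18% of all genes. By cluster, with and without a hashtag, Tgfb1 was at 124 (EV) and 95.4 CPM (Bmal1 WT) in cluster 8 and at 146 and 137 CPM in cluster 19. In the Bmal1 WT cells of cluster 14 it was at 39.2 CPM. Tgfb2 was at 113 and 139 CPM without a hashtag (0.31, 0.07 to 0.54) and had a log2 fold change of -0.30 ± 0.34 with one. Inhba was at 385 and 302 CPM (-0.35, -0.49 to -0.21) and had 0.66 ± 0.50 with a hashtag. Among the target genes, Tagln, a smooth-muscle gene, had 26.3, 28.9 and 5.63 CPM in EV and 180, 132 and 77.1 CPM in Bmal1 WT (2.78 ± 0.56, edgeR adjusted p = 0.187), with 114 of 117 UMIs of h5 in 1 cell. Without a hashtag Tagln was at 96.7 and 93.8 CPM. Igfbp3, a target gene, had -1.92 ± 0.71 (edgeR adjusted p = 0.402).

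In melanoma gated cells 9 of 9 members were tested and none had an unadjusted p under 0.05, against 3.46% of 8301 genes, and edgeR called 0 genes (0%) where DESeq2 called 5. Of the 9, 8 had a negative log2 fold change, with a median of -0.59 against 0.00 for all genes. Tgfb2, whose promoter window holds the E-box letters, was at 85.2, 13.6 and 42.0 CPM in EV and at 27.7, 36 and 28.2 CPM in Bmal1 WT (-0.88 ± 0.40, edgeR adjusted p = 1.0). The lowest EV value rested on the 5 melanoma gated cells of h7. In the 78 EV and 235 Bmal1 WT cells without a hashtag Tgfb2 was at 47.4 and 55.8 CPM (0.24, -0.15 to 0.62). Tgfbi was at 308, 368 and 142 CPM in EV and 192, 190 and 66.1 CPM in Bmal1 WT, with overlap (-0.79 ± 0.46). It was lower in Bmal1 WT also without a hashtag, at 258 and 166 CPM (-0.64, -0.81 to -0.46). Tgfbr2 (-0.59 ± 0.34), Inhba (-0.82 ± 0.49), Tgfb3 (-0.92 ± 0.53), Tgfbr1 (0.42 ± 0.47), Tgfbr3 (-0.09 ± 0.46), Smad7 (-0.19 ± 0.27) and Tgfb1 (-0.02 ± 0.52) were not separated from 0 by the test. Of the melanoma gated cells, 54 of 139 in EV and 117 of 344 in Bmal1 WT had under 1% mitochondrial UMIs.

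Pmepa1, a feedback gene on the vesicle membrane, was at 1147, 1526 and 1379 CPM in EV and 471, 1143 and 636 CPM in Bmal1 WT (-0.84 ± 0.32, edgeR adjusted p = 1.0).

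**Figure D5:**
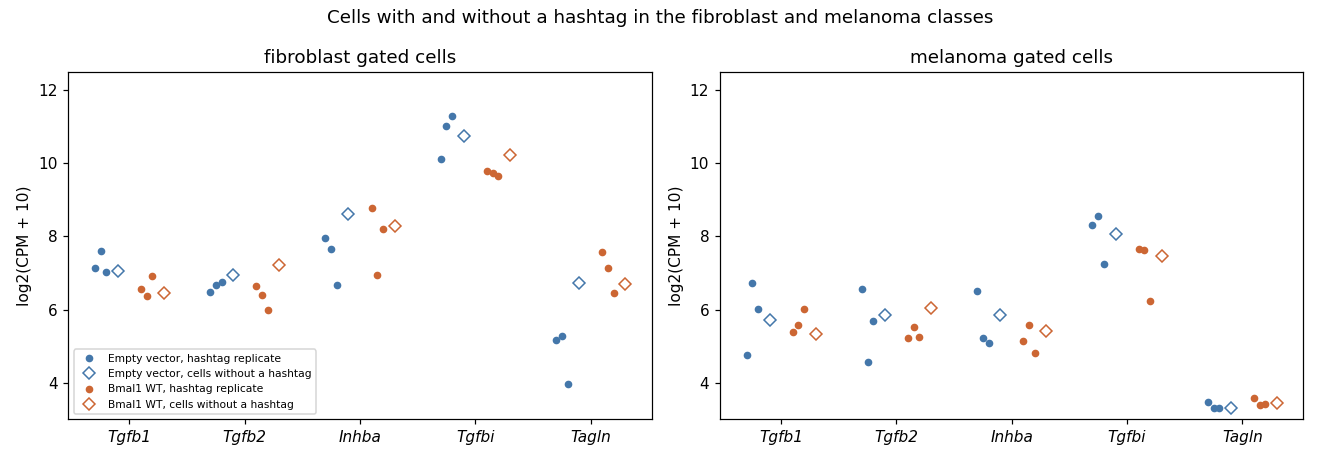
Levels as log2(CPM + 10) (vertical axis) of 5 genes in fibroblast (left) and melanoma (right) gated cells; filled points are hashtag replicates and open diamonds are the pooled cells without a hashtag, for Empty vector (blue) and Bmal1 WT (orange). Tgfbi of Bmal1 WT lies below Empty vector in fibroblast gated cells both with a hashtag (793 to 881 against 1108 to 2501 CPM) and without one (1190 against 1710 CPM). With a hashtag, 9.18% of all genes tested in this class were also lower in Bmal1 WT without overlap.

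Over all hashtagged cells, fewer cells of a class and less RNA per cell cannot be told apart in the sum. There 4 of 9 members had an unadjusted p under 0.05, all lower in Bmal1 WT, against 24.4% of 12042 genes in either direction. edgeR called 0 genes (0%), 126 without Bmal1 WT h3, and DESeq2 called 961, of which Tgfbr2 was the 1 member. Tgfbr2 was at 119, 119 and 122 CPM in EV and at 86.4, 75.5 and 90.9 CPM in Bmal1 WT (-0.51 ± 0.10, edgeR adjusted p = 0.151). Tgfb1 (-0.65 ± 0.26), Tgfbr1 (-0.28 ± 0.11) and Smad7 (-0.61 ± 0.21) were the others. The summed markers of T cells were at 815 to 1025 CPM in EV and 347 to 604 CPM in Bmal1 WT in the same cells, and their part in these results was not tested. Of the other pathway genes, Tagln had 3.37 ± 0.39 and Skil -0.74 ± 0.18 (edgeR adjusted p = 0.151 for each).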

How the data were processed

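The authors deposited raw UMI counts per gene and cell barcode and per hashtag (10x Genomics 3′ chemistry), made with Cell Ranger 6.1.2 per the file headers, with mm10 named in the submitters' processing notes; the counts were not normalized. Barcodes with at least 200 genes and at most 20% mitochondrial UMIs were kept. A 2-component mixture on log hashtag counts assigned cells with exactly 1 hashtag to a replicate. A cell took the class with the highest share of its 6 to 8 markers detected, with at least 2 markers and above every other class. No doublet caller was run; cells with several hashtags entered no replicate, and doublets of cells of 1 replicate stayed in. UMIs were summed by class and hashtag (at least 3 cells and 50000 UMIs), scaled by total UMIs and tested in edgeR 4.0.16 (quasi-likelihood, genes with at least 100 UMIs, Benjamini-Hochberg, 0.05; R 4.3.3), checked on simulated data; DESeq2 1.42.0 was an alternative. SE was the log2 fold change divided by the square root of F. Intervals were Clopper-Pearson at 95%, or, for ratios of cells without a hashtag, normal on the log scale from the UMI counts, and cover counting error only. Library totals were 34232927 and 39561569 UMIs. Clusters came from scanpy 1.11.5 (Leiden, resolution 1). Named were the 9 members in each class and, of 57 other pathway genes in 5 lists, those with an adjusted p under 0.05 or else the 2 with the smallest unadjusted p under 0.05. One of the genes this rule names is not reported here. Other feedback genes were named after their values were seen. The members and lists were chosen with earlier results of these data known. Of 31053 gene identifiers, 30934 were in GENCODE M21. Alternatives were another scaling, DESeq2, a lower gene filter, no barcode filter, another hashtag rule, a stricter gate, Leiden clusters and leaving out replicates. The paper's methods do not describe this experiment, and strand and aligner settings were not stated.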

Additional observations from a re-analysis of the deposited data

How the results depend on the processing

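No paired analysis was possible because the hashtags of both groups share no number. With edgeR, the 10 genes called in NK cells became 5 under TMM scaling, 188 with genes from 1 UMI, 108 in DESeq2, 16 with Leiden clusters, 6 without the barcode filter, and 0 with the stricter gate or hashtags set by centred log count. In T cells the 0 became 5 (TMM), 706 (1 UMI), 247 (DESeq2), 179 (Leiden) and 159 (stricter gate). In Naaa/Cd24a dendritic cells the 68 became 453 (1 UMI), 150 (DESeq2), 119 (stricter gate), 1 (cells with Xcr1 or Clec9a, chosen after seeing the data), and 0 with Leiden clusters or centred log count. With genes from 1 UMI and in DESeq2 the 0 became 175 and 13 in macrophage-monocyte, 241 and 3 in mature dendritic, 317 and 44 in fibroblast, and 17 and 5 in melanoma gated cells, and DESeq2 called 961 in all cells. Leaving out 1 hashtag gave 0 to 122 (T; highest without EV h8, and 1 without EV h1), 0 to 93 (NK; highest without EV h7, 0 without EV h1), 0 to 126 (all cells; highest without Bmal1 WT h3), 0 to 3 (fibroblast; highest without EV h7), 0 to 1 (mature dendritic; highest without Bmal1 WT h3) and 0 in the other 3 classes, Naaa/Cd24a included. Tgfbr2 in T cells was called with the stricter gate (-0.52, edgeR adjusted p = 0.0421), Leiden clusters (-0.54, 0.0359) and genes from 1 UMI (-0.52, 0.0170). Tgfbi in T cells was called with genes from 1 UMI, as was Inhba in mature dendritic cells. The largest source stayed the same in 10 of 18 pairs of gene and library with the stricter gate and 14 with Leiden clusters. In 0 of 5 alternatives did a pair of neighbouring classes pass. Among 853 alternative values of single genes, 829 kept their side of the threshold, 66 of them with a changed sign and no call, and 24 became calls. The causes were not tested. In leukocytes Tgfb2 and Tgfb3 stayed under the 100 UMIs needed for a test in each class and were not tested there.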
